A study of Oryza sativa with 7 samples.

Results

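The comparison set shoots of mir156abcdfghikl rice seedlings against embryos of fresh mir156abcdfghikl seeds, and asked which of the transcript differences between these tissues in the wild type were also present in the mutant. Its members are the genes listed in both deposited expression tables, the shoot table and the embryo table, which are 19866 of the 24922 genes listed in either. Of these, 19611 reached an FPKM of at least 1 in at least 1 of the 4 groups used (the mutant and the wild type in each tissue), and all counts below are over these genes. FPKM is the number of fragments per unit of transcript length and of sequencing depth, so levels of different genes can be set side by side.

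The study asked how the MIR156 genes act on shoot architecture and seed dormancy in rice, and sequenced mRNA from 7 groups of Nipponbare plants, a japonica cultivar, sown in a paddy field. The wild type carries no edit, and mir156abcdfghikl carries CRISPR/Cas9 mutations in 10 MIR156 genes (a, b, c, d, f, g, h, i, k and l), with MIR156e left unedited. Shoots came from 2-week-old seedlings, and embryos were taken from undried seeds at the end of seed filling, with 3 biological repeats per group. The labels give a different plant code for the mutant shoots and the mutant embryos, the study describes 3 lines of this genotype with retarded seedling growth, and which line was sequenced is not stated.

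Each deposited table holds 1 FPKM per genotype over the 3 repeats, so no SD or interval can be given, no difference was tested, and the read depth is unknown. The tables were scaled separately. The tissue difference of a gene was therefore taken as log2((shoot FPKM + 1)/(embryo FPKM + 1)), centred on the median of genes that reached 1 FPKM in both tissues, and genes were counted only where it reached 8-fold, a log2 value of 3. Centring took away 0.35 log2 units in the mutant and 0.10 in the wild type. Tissue, age and the scale of the tables cannot be told apart in a tissue difference. The mutant tissue difference minus that of the wild type equals the mutant-to-wild-type ratio in shoots minus that in embryos, each taken within 1 table, apart from the centring.

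miR156 is a small RNA that pairs with transcripts of SQUAMOSA PROMOTER BINDING PROTEIN-LIKE (SPL) genes and lowers their level and translation. In plants it is abundant in young shoots and declines with age, and the SPL transcription factors it holds back promote the adult phase, alter tillering and leaf initiation, and shape the panicle. A mature cereal embryo is loaded with storage proteins, oil bodies and desiccation protectants, whereas a seedling shoot is built from a leaf-forming meristem and expanding green leaves.

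The edited sequences are shown because they define the genotype on both sides of the comparison. In each of the 3 lines, 10 sequences are recorded, of which 3, 3 and 2 carry a deletion in lines A1, A2 and A3, and the source gives no genome position for them. The stretch in capitals is the longest run common to the 8 deletion-free sequences of MIR156a, MIR156b and MIR156h over the lines, 15 bases long, and the bases at which these sequences differ lie among the lower-case letters beside it. The sequences of MIR156a were turned to the strand on which this run is read.
A1 MIR156a: aCAGAAGAGAGTGAGCacaacgtgg
A3 MIR156a: CAGAAGAGAGTGAGCaccacgtgg
A1 MIR156b: CAGAAGAGAGTGAGCacaacacgg
A3 MIR156b: CAGAAGAGAGTGAGCaccacacgg
A1 MIR156h: gaCAGAAGAGAGTGAGCcacacgg
A3 MIR156h: ttgaCAGAAGAGAGTGAGCaacacgg
A3 MIR156c: cagaagagagacatggtga
The last of these carries a deletion and does not hold the whole run.

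The shoot and the embryo marker lists each made up a larger share of the summed FPKM in the labelled tissue. Over the whole tables, photosystem and light-harvesting transcripts made up 2.08% of the summed FPKM in mutant shoots, 10.4% in wild-type shoots, 0.0645% in mutant embryos and 0.0216% in wild-type embryos. For Calvin cycle enzymes the gap in the mutant was narrow, at 0.152%, 2.94%, 0.0753% and 0.0817% in the same order. Chlorophyll synthesis genes made up 0.125%, 0.227%, 0.0233% and 0.0223%. Oleosins and caleosins, proteins of oil bodies, made up 4.46% and 4.61% in mutant and wild-type embryos and 0.0317% and 0.0599% in mutant and wild-type shoots. Late embryogenesis abundant (LEA) proteins and dehydrins, which protect drying cells, made up 3.43% and 3.67% in the embryos and 0.0488% and 0.219% in the shoots. Glutelins and prolamins, the storage proteins of the endosperm around the embryo, made up 7.58% and 8.30% in the embryos through 34 listed genes, and 1 of these genes, at 3.12 and 2.72 FPKM, was listed in the shoots. In the embryos this endosperm list held a larger share than either embryo list. How far endosperm transcripts enter the embryo values was not tested. The genes listed in both tables held 96.1% of the summed FPKM of mutant shoots but 74.0% of that of mutant embryos, since many abundant embryo transcripts are not in the shoot table.

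The mutant tissues lay closer to each other than the wild-type tissues. In mir156abcdfghikl, 529 genes (2.7%) were at least 8-fold higher in shoots and 424 (2.16%) at least 8-fold higher in embryos, together 4.86% of genes, against 1403 (7.15%) and 701 (3.57%), together 10.7%, in the wild type. The tissue difference was above 0 for 9813 genes in the mutant and 9501 in the wild type. A tissue difference within 2-fold was found for 66.7% of genes in the mutant and 53.7% in the wild type, and the interquartile range of the log2 tissue difference was 1.29 and 1.83. Ranks, which do not depend on the scale, gave the same order. Spearman's rho across genes, which are not independent replicates, was 0.67 between shoots and embryos of the mutant and 0.50 between those of the wild type. It was 0.97 between the mutant and wild-type embryos and 0.71 between the mutant and wild-type shoots. Without centring, the mutant counts were 748 and 333, and with each group scaled to the same sum they were 797 and 418, so shoot-high genes, 55.5% of the mutant's genes past 8-fold after centring, were 69.2% and 65.6% of them.

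**Figure D1:**
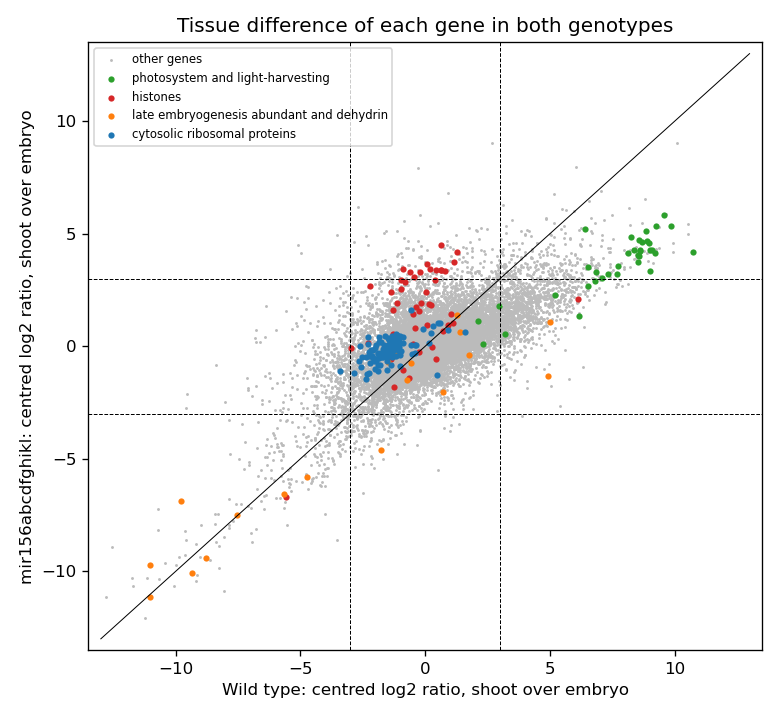
Each point is a gene, with its centred log2 ratio of shoot over embryo in the wild type on the horizontal axis and in mir156abcdfghikl on the vertical axis. Dashed lines mark 8-fold and the solid line marks equal values. Photosystem genes lie to the right and below the solid line, with a median of 4.09 in the mutant against 8.45, 39 of the 48 histone genes lie above it, and the 8 LEA genes that were embryo-high in both genotypes lie at the lower left.

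Of the 1403 genes that were shoot-high in the wild type, 328 (23.4%) were also at least 8-fold higher in shoots of the mutant, which is 62.0% of the mutant's 529 and 1.67% of all genes. A further 831 were between 2-fold and 8-fold in the same direction, 230 (1.17% of all genes) were within 2-fold, and 14 were past 2-fold in favour of embryos. Of the 701 embryo-high genes of the wild type, 269 (38.4%) were embryo-high in the mutant, which is 63.4% of the mutant's 424 and 1.37% of all genes. Between 2-fold and 8-fold lay 224, within 2-fold 161 (0.821%) and 47 past 2-fold in favour of shoots. The order of the 2 shares is not stable, since scaling each group to the same sum gave 34.4% for shoot-high and 30.1% for embryo-high genes, and adding 0.1 FPKM in place of 1 gave 29.8% and 27.4%. The genes were picked for an extreme ratio in the wild type whose error is not known, and how far this choice bears on the smaller ratios in the mutant was not tested.

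The share kept rose with the size of the wild-type difference. Part of this rise is built into the fixed 8-fold limit, since a gene just past it drops out after a smaller shift. Among shoot-high genes the share was 10.6% (71 of 670) for wild-type differences of 8-fold to 16-fold, 23.4% (130 of 555) from 16-fold to 64-fold, 60.6% (77 of 127) from 64-fold to 256-fold, and 98.0% (50 of 51) from 256-fold on. Among embryo-high genes the shares were 22.3% (82 of 368), 46.5% (107 of 230), 70.3% (45 of 64) and 89.7% (35 of 39). In the lowest class the median log2 tissue difference of shoot-high genes was 1.51 in the mutant and 3.44 in the wild type. That of embryo-high genes was -1.54 and -3.41. In the top class the median log2 tissue difference of shoot-high genes was 4.26 in the mutant and 8.86 in the wild type, whereas that of embryo-high genes was -9.36 and -9.57. In this class the embryo-high median thus had nearly the same size in both genotypes, and the shoot-high median kept its direction at a smaller size. Over the 269 embryo-high genes kept, median shoot FPKMs were 1.97 in the mutant and 2.29 in the wild type. At such levels the added 1 FPKM damps changes in the ratio. How far this bears on the contrast between the 2 directions was not tested.

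**Figure D2:**
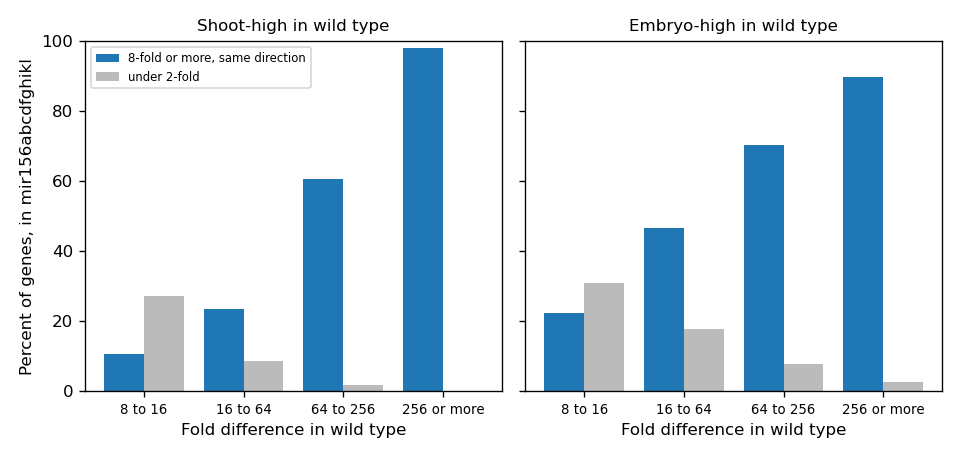
Bars give the percent of wild-type shoot-high (left) or embryo-high (right) genes that had at least an 8-fold difference in the same direction in mir156abcdfghikl (blue) or a difference under 2-fold (grey), by the fold difference in the wild type. The blue bars run from 10.6% to 98.0% on the left and from 22.3% to 89.7% on the right.

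The genes that were no longer tissue-different in the mutant differed from the wild type mainly in shoots. For the 230 shoot-high genes within 2-fold in the mutant, the mutant-to-wild-type log2 ratio had a median of -2.62 in shoots and 0.26 in embryos, and their median shoot FPKM was 5.42 in the mutant and 38.7 in the wild type. For the 161 embryo-high genes within 2-fold in the mutant, the ratio was 3.56 in shoots and -0.02 in embryos, with median shoot FPKMs of 22.8 and 0.60. Genes gained in the mutant pair also differed in shoots. Of the 529 shoot-high genes of the mutant, 74 (0.377% of all genes) were within 2-fold in the wild type, with a median log2 ratio of 3.65 in shoots and -0.15 in embryos, and 40 were past 2-fold in favour of embryos there. Of the 424 embryo-high genes of the mutant, 18 (0.0918% of all genes) were within 2-fold in the wild type, with a median log2 ratio of -2.55 in shoots and 0.13 in embryos. Over all genes, 13.1% differed at least 4-fold between the genotypes in shoots and 0.219% in embryos.

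Among the 10 genes with the lowest tissue differences in the mutant were storage proteins, a protease inhibitor, a LEA protein and a small heat shock protein. The lowest tissue difference, -12.07, was that of a cupin-domain gene of the seed globulin kind (LOC_Os08g08960, chromosome 8, 5208384 to 5209569), with 1.48 FPKM in mutant shoots and 8359.8 in mutant embryos. In the wild type it had 0.16 and 2575 FPKM. A Bowman-Birk trypsin inhibitor (BBTI5, LOC_Os01g03360, chromosome 1, 1353628 to 1354802), one of the proteins that guard seed reserves from proteases, had 0.63 FPKM in mutant shoots and 2910.4 in mutant embryos, against 0.36 and 8951 in the wild type. These 10 genes had between 0.09 and 3.12 FPKM in mutant shoots and between 1208 and 8359.8 FPKM in mutant embryos.

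The LEA proteins and dehydrins that were embryo-high in the wild type were so in the mutant, while the 2 that were shoot-high there were not. Of 19 listed genes, 9 were embryo-high in the mutant (2.16% of all genes) and 8 in the wild type (3.57% of all genes), and 8 were so in both. None was shoot-high in the mutant (2.7% of all genes) and 2 were in the wild type (7.15% of all genes). The median tissue difference was -2.04 and -1.50. The LEA group 3 gene LOC_Os01g50910 had 0.62 FPKM in mutant shoots and 2847 in mutant embryos (-11.13), and 0.52 and 3008 in the wild type (-11.05). The LEA D-34 gene LOC_Os03g06360 moved toward shoots, with 16.4 and 1616 FPKM in the mutant and 1.51 and 2089.9 in the wild type. Another LEA gene, LOC_Os01g21250, was shoot-high in the wild type and higher in embryos in the mutant. Its shoot FPKM was 14.6 in the mutant and 913 in the wild type, and its embryo FPKM was 29.8 and 26.7. A further 19 LEA genes are listed only in the embryo table and could not enter.

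Other seed classes differed in how many of their genes were embryo-high. Over all genes, 2.16% were embryo-high in the mutant and 3.57% in the wild type. Of 23 globulin and cupin genes, 2 were embryo-high in the mutant and 3 in the wild type, 13 were above 0 in the mutant, and the median was 0.18 in the mutant and 0.22 in the wild type. The cupin LOC_Os01g14670 was shoot-high, with 159 FPKM in mutant shoots and 1.83 in mutant embryos (5.48), and 213 and 0.76 in the wild type (6.82). The 2 seed allergenic protein genes listed in both tables, RAL2 (LOC_Os07g11330) and RAL4 (LOC_Os07g11380), had tissue differences of -10.16 and -10.32 in the mutant and -9.16 and -11.74 in the wild type. These genes are close copies, and how their reads were shared is uncertain. The glutelin LOC_Os10g26060 had 3.12 FPKM in mutant shoots and 4173 in mutant embryos (-10.33), with -10.66 in the wild type. Of 8 oleosin and caleosin genes, 3 were embryo-high in the mutant and 4 in the wild type, while 3 and 4 were above 0. The oleosin LOC_Os05g50110 had 0.26 and 357 FPKM in the mutant and 0.86 and 467 in the wild type. Small heat shock proteins, chaperones that accumulate in drying seeds, included LOC_Os01g04370, with 0.21 FPKM in mutant shoots and 1527 in mutant embryos (-10.64, and -10.07 in the wild type). Of the 121 heat shock and DnaJ genes, 10 were embryo-high in the mutant (2.16% of all genes), 7 of these also in the wild type, and 5 were shoot-high in the mutant (2.7% of all genes).

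Photosystem and light-harvesting genes kept their direction and a part of their size. Of 36 photosystem and light-harvesting genes listed in both tables, all 36 were above 0 in both genotypes. Shoot-high were 28 in the mutant (2.7% of all genes) and 33 in the wild type (7.15% of all genes). The median tissue difference was 4.09 in the mutant and 8.45 in the wild type. The mutant difference was smaller for all 36, by at least 8-fold for 29 (80.6%, against 2.46% of all genes). In FPKM the median of these genes was 256 in mutant shoots, 11.8 in mutant embryos, 2424 in wild-type shoots and 4.91 in wild-type embryos, so that both tissues contributed. By rank the median gene stood at the 98.6 percentile of mutant shoots and the 59.9 percentile of mutant embryos, against 99.8 and 36.7 in the wild type.

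The most abundant of them, the chlorophyll a/b binding protein gene LOC_Os01g41710 (chromosome 1, 23607347 to 23608583), had 2011 FPKM in mutant shoots and 27.2 in mutant embryos (5.81), and 8235 and 9.14 in the wild type (9.56). Another gene of this antenna family, LOC_Os01g52240, had 165 and 6.20 FPKM in the mutant (4.18), and 4563 and 1.46 in the wild type (10.75). Of the 33 genes that were shoot-high in the wild type, 1 was within 2-fold in the mutant, namely the photosystem II protein K gene LOC_Os02g24642, with 2.31 and 0.77 FPKM in the mutant and 15.2 and 0.64 in the wild type. Genes of this family have near-identical copies, among which reads may have been split.

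Carbon fixation genes divided by copy. Of 7 Calvin cycle genes listed in both tables, 4 were above 0 in the mutant and 6 in the wild type, with medians of 0.02 and 0.79. The Rubisco small chain gene LOC_Os12g17600 had 522 FPKM in mutant shoots and 8.60 in mutant embryos (5.42), against 19505 and 11.4 in the wild type (10.52). The copy LOC_Os12g19470 had 204 and 4.14 FPKM in the mutant (4.97). Another copy, LOC_Os02g05830, was embryo-high in both genotypes, with 18.2 FPKM in mutant shoots and 450.3 in mutant embryos (-4.90), and 6.62 and 609 in the wild type (-6.43). Of 15 chlorophyll synthesis genes, 2 were shoot-high in the mutant (2.7% of all genes) and 8 in the wild type (7.15% of all genes). The medians were 1.80 and 3.01. Protochlorophyllide reductase A (LOC_Os04g58200), the light-driven step of the pathway, stayed shoot-high with 211 and 2.37 FPKM in the mutant (5.63) and 267 and 0.72 in the wild type (7.18).

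Histone genes were mostly higher in shoots in the mutant and near balance in the wild type. Histones are the proteins that pack DNA and are made in bulk when it is copied. Of 48 genes described as histones, 13 were shoot-high in the mutant (2.7% of all genes) and 1 in the wild type (7.15% of all genes). Of the 74 genes gained as shoot-high, 11 were histones, while histones are 0.245% of all genes. A tissue difference above 0 was found for 39 and 21 of the histones, and for 9813 and 9501 of all 19611 genes. The median tissue difference of the histones was 1.86 and -0.26. The median FPKM was 189.5 in mutant shoots, 33.6 in mutant embryos, 23.3 in wild-type shoots and 32.0 in wild-type embryos, so that mutant shoots alone stood apart. The gene LOC_Os03g17100 had 1469 FPKM in mutant shoots and 90.0 in mutant embryos (3.67), and 69.9 and 61.8 in the wild type (0.07).

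Not all histone genes followed. The histone H3 gene LOC_Os03g27310 had 784 FPKM in mutant shoots and 387 in mutant embryos (0.67), and 759 and 436 in the wild type (0.70). The gene LOC_Os09g39730 was embryo-high in both genotypes, at 0.31 and 107 FPKM in the mutant and 0.50 and 66.5 in the wild type. Many histone genes encode nearly the same protein, and their reads may be shared.

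**Figure D3:**
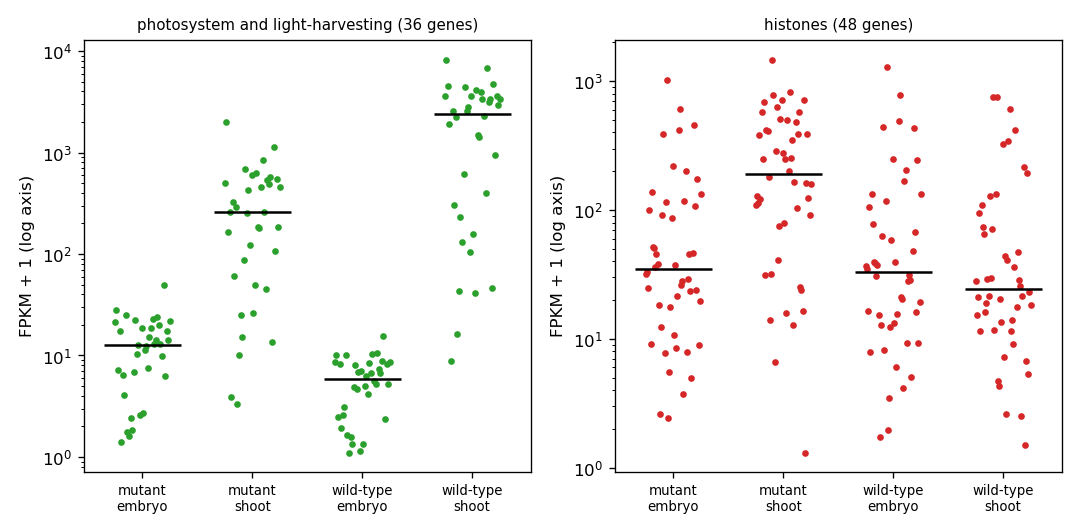
Points are the FPKM + 1, on a log axis, of the 36 photosystem and light-harvesting genes (left) and the 48 histone genes (right) in embryos and shoots of the mutant and of the wild type, and horizontal lines are medians. Photosystem medians run from 4.91 FPKM in wild-type embryos to 2424 FPKM in wild-type shoots with both mutant tissues between, whereas the highest histone median is that of mutant shoots.

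Genes of cell division were also above 0 more often in the mutant than in the wild type. Of 105 genes for cyclins, cyclin-dependent kinases, kinesins and DNA replication proteins, 72 had a tissue difference above 0 in the mutant, where 9813 of all 19611 genes did. In the wild type 25 of the 105 had one, where 9501 of all genes did. The medians were 1.01 and -0.52. Shoot-high were 2 in the mutant (2.7% of all genes) and 3 in the wild type (7.15% of all genes). The mitotic kinase gene described as cyclin-dependent kinase B2-1 (LOC_Os08g40170) had 65.2 FPKM in mutant shoots and 26.7 in mutant embryos, and 5.18 and 18.0 in the wild type. A kinesin gene, LOC_Os01g54080, for a motor protein that moves along microtubules, had 63.5 and 21.4 FPKM in the mutant and 7.68 and 15.3 in the wild type. The cyclin gene LOC_Os09g32680 differed little, with 73.5 and 80.8 FPKM in the mutant and 63.5 and 85.8 in the wild type.

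The 123 cytosolic ribosomal protein genes were embryo-biased in the wild type and near balance in the mutant. Their median tissue difference was -0.19 in the mutant, or 0.16 without centring, and -1.48 in the wild type. Within 2-fold were 111 of the 123 in the mutant (66.7% of all genes) against 17 in the wild type (53.7% of all genes). None was past 8-fold in the mutant (4.86% of all genes) and 1 was in the wild type (10.7% of all genes). The 60S protein gene LOC_Os05g38520 had 681 FPKM in mutant shoots and 600.5 in mutant embryos, and 176 and 697 in the wild type. The 23 ribosomal protein genes of plastids and mitochondria held a different place. Shoot-high were 1 in the mutant (2.7% of all genes) and 10 in the wild type (7.15% of all genes).

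At the shoot-high end, the leading genes of the mutant were of mixed kinds. The highest tissue difference, 9.04, was that of LOC_Os02g40260 (chromosome 2, 24372804 to 24374496), described as an uncharacterized protein, with 1178 FPKM in mutant shoots and 0.76 in mutant embryos, against 11.1 and 0.75 in the wild type (2.69). An abscisic stress-ripening gene, LOC_Os11g06720, of a family of small hydrophilic proteins induced by drought, was the most abundant of the 19611 genes in mutant shoots. It had 4211 FPKM there and 5.40 in mutant embryos (9.01), and 4172 and 2.54 in the wild type (10.10), so its level was nearly the same in shoots of both genotypes. A gene described as meiosis 5, LOC_Os02g13660, had 319 and 1.26 FPKM in the mutant (6.80) and 3.38 and 1.15 in the wild type (0.92).

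Some members of cell wall and cell surface families were shoot-high in the mutant, though most members of each were not. Of 48 class III peroxidases, which cross-link or loosen wall polymers, 13 were shoot-high in the mutant (2.7% of all genes) and 14 in the wild type (7.15% of all genes), and 8 in both, and the medians were 1.90 and 0.82. The peroxidase LOC_Os01g19020 had 149 FPKM in mutant shoots, was listed at 0 in mutant embryos, and had 262 and 0.87 in the wild type. Of 11 dirigent genes, whose proteins steer the coupling of lignan precursors, 5 were shoot-high in each genotype and 3 in both. The dirigent list was added after the values were seen. The dirigent LOC_Os11g42550 had 429 and 0.37 FPKM in the mutant (7.94) and 126 and 0.77 in the wild type (6.06).

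Of 11 genes of the pollen Ole e I and extensin family of wall proteins, 3 were shoot-high in the mutant and 1 in the wild type, and none in both. POEI14 (LOC_Os10g05990, chromosome 10, 3020700 to 3022137) had 744 FPKM in mutant shoots and 1.41 in mutant embryos (7.92), and 0.59 and 0.82 in the wild type (-0.29). Its neighbour POEI15 (LOC_Os10g06000) had 728 and 22.5 FPKM in the mutant (4.61) and 2.50 and 22.6 in the wild type (-2.85). POEI12 and POEI13, next to them, are listed only in the shoot table, at 672 and 576 FPKM in the mutant and 1.04 and 1.47 in the wild type. These neighbours are similar genes, and reads may be shared among them. Of 57 GDSL-like lipases, 14 were shoot-high in the mutant and 9 in the wild type, 5 of them in both, with medians of 1.35 and -0.27. At least 8-fold toward shoots had moved 16, where 2.63% of all genes did. Over all genes 2.7% were shoot-high in the mutant and 7.15% in the wild type. The Ole e I and GDSL-like lipase lists were added after the values were seen, so these shares are no test of them.

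Expansins, which loosen walls for growth, had a median of 0.63 in the mutant and -1.14 in the wild type over 22 genes. Of these, 7 were embryo-high in the wild type (3.57% of all genes) and 2 in the mutant (2.16% of all genes). The expansin LOC_Os10g40730 had 221 FPKM in mutant shoots and 69.6 in mutant embryos, and 33.4 and 42.8 in the wild type. LTPL genes, a family of lipid transfer proteins, protease inhibitors and seed storage proteins, went both ways. Of 51, 12 moved toward shoots (2.63% of all genes) and 3 toward embryos (2.46% of all genes). LTPL26 (LOC_Os12g02300) had 1433 and 183.2 FPKM in the mutant (2.61) against 9.93 and 264 in the wild type (-4.70).

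The targets of miR156 had higher levels in the mutant in both tissues, and their median tissue difference was close to that of the wild type. Of the 11 target SPL genes, 9 are listed in both tables, and all 9 had a higher FPKM in mutant than in wild-type shoots and in mutant than in wild-type embryos. The median tissue difference was 1.07 in the mutant and 0.81 in the wild type, and the change between genotypes ran from -0.79 for SPL4 to 1.19 for SPL17. These values depend on the added 1 FPKM, since some targets were under 1 FPKM in the wild type. The median change was 0.63, against 0.07 with 0.1 FPKM added and 0.007 with nothing added. With nothing added the median tissue differences were 1.26 and 1.25. SPL2 (LOC_Os01g69830) had 28.3 FPKM in mutant shoots and 0.84 in mutant embryos (3.65), and 12.4 and 0.54 in the wild type (3.02). SPL13 (LOC_Os07g32170), a regulator of grain size, had 33.6 and 2.38 FPKM in the mutant (3.01) and 5.11 and 0.12 in the wild type (2.34). These were the 2 targets past 8-fold in the mutant (4.86% of all genes). SPL13 was under that limit in the wild type only because 1 FPKM was added to its 0.12 FPKM in embryos. Its ratio of the FPKM values as listed was larger in the wild type than in the mutant.

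IPA1 (SPL14, LOC_Os08g39890, chromosome 8, 25274448 to 25278696), which reduces tillering and strengthens culms, was lower in shoots than in embryos. It had 33.8 FPKM in mutant shoots and 86.9 in mutant embryos (-1.68), and 1.07 and 8.69 in the wild type (-2.33), so that it was embryo-biased in both genotypes. SPL17 (LOC_Os09g31438), its closest relative among the targets, was near balance in the mutant with 10.01 and 9.18 FPKM (-0.23) and lower in shoots in the wild type with 0.38 and 2.45 (-1.43). In mutant shoots the highest target was SPL3 with 82.5 FPKM, followed by SPL12 with 64.1, whereas in mutant embryos IPA1 stood first and SPL3, at 23.2, next. SPL7 and SPL16 are listed only in the shoot table, at 1.16 and 3.24 FPKM in the mutant and 0.081 and 0.27 in the wild type. The 5 SPL genes listed in both tables that miR156 does not target had medians of 0.54 and 0.63. All 5 were within 2-fold between tissues of the mutant, as were 66.7% of all genes.

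**Figure D4:**
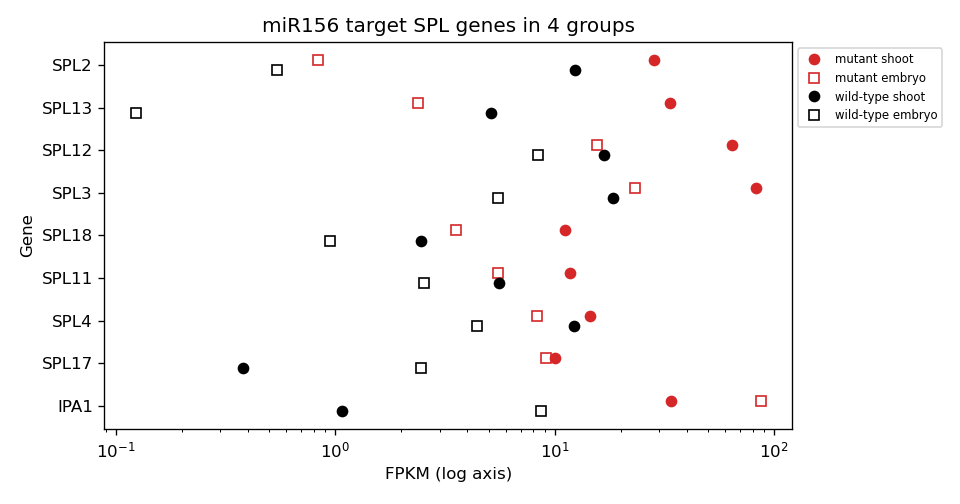
FPKM, on a log axis, of the 9 miR156 target SPL genes listed in both tables, with filled circles for shoots and open squares for embryos, red for mir156abcdfghikl and black for the wild type. For 8 of the 9 genes the mutant shoot lies to the right of the mutant embryo, and for IPA1 it lies to the left, at 33.8 against 86.9 FPKM.

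The 6 genes of gibberellin (GA) biosynthesis listed in both tables were between 0.62 and 13.51 FPKM in mutant shoots and between 1.09 and 11.9 FPKM in mutant embryos. None of the 6 was past 8-fold in the mutant (4.86% of all genes) or in the wild type (10.7% of all genes). After centring, none had a tissue difference above 0 in the mutant and 4 had in the wild type, with medians of -0.44 and 0.49. Without centring 3 were above 0 in the mutant and 5 in the wild type, and with each group scaled to the same sum 3 were in each. KO2 (LOC_Os06g37364), an early oxidation step, had 7.69 FPKM in mutant shoots and 9.97 in mutant embryos, and 19.0 and 7.77 in the wild type. KAO (LOC_Os06g02019), the next oxidase, had 0.62 and 1.09 FPKM in the mutant and 5.71 and 2.80 in the wild type. GNP1 (LOC_Os03g63970), a GA 20-oxidase, had 1.81 and 1.54 FPKM in the mutant and 11.5 and 10.8 in the wild type, lower in both tissues, which left its tissue difference at -0.20 and -0.01. SD1 (LOC_Os01g66100), the semidwarf gene for another 20-oxidase, was the one that moved toward shoots, with 3.27 and 6.36 FPKM in the mutant (-1.13) and 2.27 and 12.8 in the wild type (-2.18). CPS1 and GA3ox2 are listed only in the shoot table, at 1.39 and 6.89 FPKM in the mutant and 8.11 and 1.87 in the wild type.

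Of 6 genes listed in both tables that deactivate GA, 1 was past 8-fold in the wild type (10.7% of all genes) and none in the mutant (4.86% of all genes). GA2ox4 is listed only in the shoot table, at 3.33 FPKM in the mutant and 2.54 in the wild type. GA2ox8 is listed only in the embryo table, at 4.13 and 2.06. GA2ox10 (LOC_Os05g11810) was embryo-high in the wild type and within 2-fold in the mutant. It had 58.3 FPKM in mutant shoots and 70.9 in mutant embryos (-0.62), and 8.76 and 89.3 in the wild type (-3.31). EUI1 (LOC_Os05g40384), a P450 that inactivates GA in the uppermost internode, had 0.97 and 7.93 FPKM in the mutant (-2.53) and 2.03 and 4.64 in the wild type (-1.0). Of the GA signaling genes, the DELLA repressor SLR1 (LOC_Os03g49990) had 182.7 and 21.3 FPKM in the mutant (2.70) and 97.0 and 25.6 in the wild type (1.78), whereas the receptor GID1 (LOC_Os05g33730) was higher in embryos in both, at 56.1 and 81.6 FPKM in the mutant and 43.6 and 98.5 in the wild type. Of 26 putative GA receptor genes, 3 were shoot-high in the mutant (2.7% of all genes) and 6 in the wild type (7.15% of all genes), 2 of them in both.

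Class I KNOX genes keep cells of the shoot meristem undetermined, and 3 of the 5 were shoot-high in both genotypes, with medians of 3.03 and 3.12. The KNOX gene LOC_Os03g03164 had 29.9 FPKM in mutant shoots and 1.53 in mutant embryos (3.26), and 13.6 and 0.56 in the wild type (3.12), while LOC_Os06g43860 had 57.1 and 2.65 in the mutant (3.64) and 294 and 2.33 in the wild type (6.37). Over all genes, 2.7% were shoot-high in the mutant and 7.15% in the wild type. Among 54 WRKY genes, a family of defence regulators, 1 was shoot-high in the mutant and 8 in the wild type. Among 48 NAC genes, regulators of senescence and stress, the medians were 0.22 and 0.97, and 2 and 3 were shoot-high. Among 107 cytochrome P450 genes, 7 and 23 were shoot-high, and all 7 of the mutant were so in the wild type too. The 7 kept of 23 stand beside the 23.4% kept over all genes.

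Pathogenesis-related Bet v I genes, a list added after the values were seen, included the largest move toward embryos among the 19611 genes. LOC_Os12g36880 had 8.53 FPKM in mutant shoots and 46.2 in mutant embryos (-2.66), against 411 and 7.95 in the wild type (5.42). A gene near it, LOC_Os12g36850, had 0.64 and 3.37 FPKM in the mutant (-1.76) and 74.6 and 1.12 in the wild type (5.05). Another member, LOC_Os04g39150, ran the other way with 804 and 228 FPKM in the mutant (1.47) and 23.5 and 176 in the wild type (-2.95). Their copies are similar, so the split of reads among them is uncertain.

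Repeated elements stayed near the median of all genes. Over 250 genes described as retrotransposons the medians were -0.09 in the mutant and 0.04 in the wild type, and over 230 described as DNA transposons -0.14 and -0.21. The signs of both mutant medians turned without centring. In the mutant, 10 retrotransposon and 2 DNA transposon genes were shoot-high (2.7% of all genes), and 5 retrotransposon genes and no DNA transposon gene were embryo-high (2.16% of all genes).

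**Figure D5:**
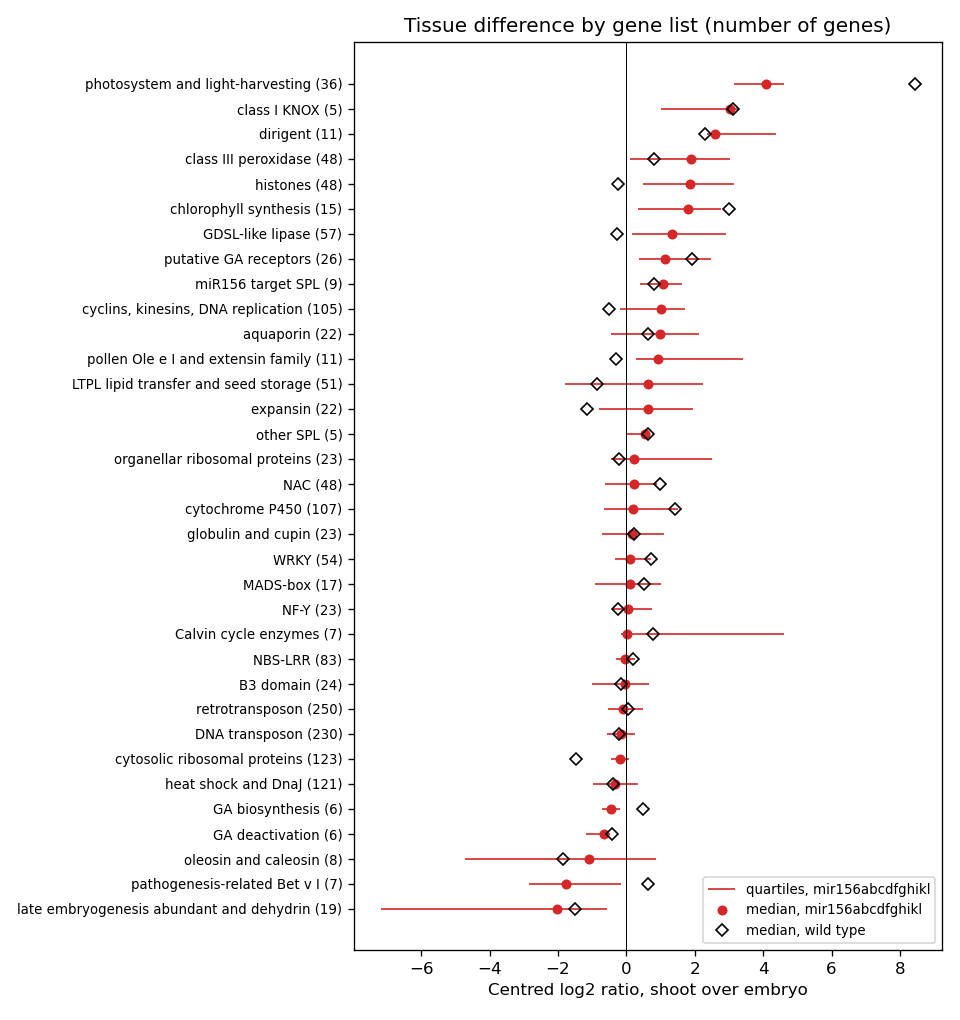
Median centred log2 ratio of shoot over embryo for gene lists with at least 5 genes, in mir156abcdfghikl (red circles, with lines from the first to the last quartile) and in the wild type (open diamonds), with the number of genes in parentheses. Photosystem genes have the largest gap between the genotypes in favour of the wild type, from 8.45 to 4.09, and histone genes have a median of 1.86 in the mutant against -0.26 in the wild type.

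Genes listed in only 1 of the tables lie outside these counts and take a larger part of the summed FPKM in embryos than in shoots. The 1639 genes of the embryo table alone held 26.0% of the summed FPKM of mutant embryos and 30.0% of that of wild-type embryos, led by an oleosin (LOC_Os04g46200) with 15859 and 19138 FPKM and the prolamin PROLM26 (LOC_Os07g10580) with 15192 and 20506. The 3417 genes of the shoot table alone held 3.94% of the summed FPKM of mutant shoots and 5.88% of that of wild-type shoots. Their most abundant member in the mutant was LTPL113 (LOC_Os02g44320), at 745 FPKM against 45.2 in the wild type.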

How the data were processed

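Messenger RNA of seedling shoots and fresh seed embryos of mir156abcdfghikl and the wild type was sequenced by the authors from stranded libraries. They aligned the reads to TIGR release 7 with HISAT2 and computed FPKM with Cufflinks (version 2.2.1 in the submitters' processing notes). Their deposited tables hold 1 FPKM value per group over 3 repeats, and also the authors' log2 ratio of mutant to wild type with its direction, p-value and q-value, which were not used. The 2 tables of other tissues were not used.

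Python 3.11.15 with pandas 2.3.3 and numpy 2.4.6 gave the tissue differences, counts and list medians, and matplotlib 3.10.9 the plots. A pseudocount of 1 FPKM, a minimum of 1 FPKM in any of the 4 groups, centring on the median and an 8-fold limit were set. The steps were checked on simulated data. Since no depth or value per repeat was at hand, no count model, test or interval was used. An FPKM of 0 was kept as listed.

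Genes are in 39 lists, matched by gene ID for SPL and GA genes and by words of the descriptions for the others. The members and lists were chosen with earlier results of these data known. After the values were seen, 4 lists were added (Ole e I and extensin family, Bet v I, GDSL-like lipases, dirigents), and the words for LEA proteins, globulins and cyclins were corrected, since they had taken in unrelated genes. The genes named are SPL and GA genes, the 10 highest and the 10 lowest tissue differences, the 8 largest moves each way, the 5 most abundant of each mutant tissue, the 3 highest members of a list, its members past 8-fold in the other direction where these were at most 3, genes opposite in the genotypes, and the 5 most abundant of a single table. LOC_Os02g24642 was named after its values were seen. Alternatives were another pseudocount, filter, centring, scaling, limit and ranks. Sequences of the edited genes come from the study's table of mutants.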

Additional observations from a re-analysis of the deposited data

Results flagged for a closer look

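For 7 genes the tissue difference was past 8-fold in opposite directions in mir156abcdfghikl and the wild type. With 1 value per group, the differences between genotypes below were not tested. Without centring 5 of the 7 were past 8-fold in both genotypes, since LTPL65 came to -2.92 in the wild type and LOC_Os10g11889 to -2.77 in the mutant, and LTPL65 was also under the limit, at -2.97, with centring on genes of at least 10 FPKM in both tissues.

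Moves toward shoots were found for 6 of them. LTPL65 (LOC_Os01g59870), of the lipid transfer family, had 90.7 FPKM in mutant shoots and 6.66 in mutant embryos, and 0.38 and 9.48 in the wild type, a change of 6.26 log2 units. The defensin-like gene DEF7 (LOC_Os02g41904), of a family of small antimicrobial proteins, had 378 and 26.7 FPKM in the mutant and 0.12 and 13.7 in the wild type, a change of 7.24. The glutathione S-transferase LOC_Os03g04220, of a detoxifying family, had 191 and 3.94 FPKM in the mutant and 0.13 and 11.2 in the wild type, a change of 8.47. In these 3 genes the mutant shoot was the high value and the wild-type shoot the low one, with the embryos between.

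The aspartic proteinase LOC_Os03g08790 had 209 and 17.9 FPKM in the mutant and 2.01 and 23.9 in the wild type, a change of 6.28. LOC_Os04g54620, of no known function, had 223 and 9.02 FPKM in the mutant, was listed at 0 in wild-type shoots and had 28.5 FPKM in wild-type embryos, a change of 9.12. LOC_Os06g44980, also without a known function, had 27.5 FPKM in mutant shoots and 30.7 in wild-type embryos and was listed at 0 in the other 2 groups, a change of 9.57. It is the 1 gene of the 7 whose embryos differed as much as its shoots.

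A move toward embryos was found for LOC_Os10g11889, which was listed at 0 in mutant shoots and had 5.80 FPKM in mutant embryos, against 48.5 and 2.10 in the wild type, a change of -7.01.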

How the results depend on the processing

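Counts at 8-fold depended on the pseudocount and on scaling. For shoot-high genes of the mutant, 529 became 823 with 0.1 FPKM added, 868 with nothing added and genes at 0 left out, 797 with each group scaled to the same sum, 1045 by a rank difference of 40 points and 1389 at 4-fold. For embryo-high genes, 424 became 912 at 4-fold and 782 by rank. Moves toward shoots, 516, became 1041, 1109 and 890 under 0.1 FPKM, nothing added and scaling, and 1274 at 4-fold, and those toward embryos, 482, became 823, 915 and 1523 under 0.1 FPKM, nothing added and 4-fold. Without centring the moves were 654 and 361, so that 64.4% in place of 51.7% were toward shoots, and scaling made this 73.4%. Scaling moved the median change of all genes by 0.47 log2 units and leaving out centring by 0.24. The share of wild-type shoot-high genes kept, 23.4%, was 29.8% (0.1 FPKM), 30.5% (nothing added), 29.6% (not centred), 34.4% (scaled), 35.5% (rank) and 34.3% (4-fold), and that of embryo-high genes, 38.4%, was 27.4%, 25.4% and 30.1% under 0.1 FPKM, nothing added and scaling.

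Of 39 list medians, 33 stayed on the same side of 2-fold under each alternative run. The list of 3 abscisic acid genes turned from -1.49 to 0.83 with a minimum of 10 FPKM, which leaves fewer genes. For the other changes of side the cause was not tested. No paired analysis was possible because the tables hold no value per repeat, and for the same reason no repeat could be left out in turn. Depth is unknown, so the precision of low FPKM values cannot be given.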
